A study of Mus musculus with 11 samples.

Results

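Megakaryocytes shed platelets, and before birth the liver is a site of blood formation that holds megakaryocytes of its own. The 7 genes described here encode products of these cells or the hormone that sets their number. Pf4 and Ppbp encode chemokines stored in platelet alpha granules. Itga2b encodes integrin alpha IIb (CD41), which pairs with the Itgb3 chain to form the fibrinogen receptor, and Gp1ba and Gp9 encode subunits of the platelet receptor for von Willebrand factor. Vwf encodes von Willebrand factor itself, which endothelial cells and megakaryocytes make. Thpo encodes thrombopoietin, the hormone that drives megakaryocyte production and that is made mainly by hepatocytes.

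The genes were chosen by name with earlier results of these data known, and no threshold on a level entered the rule. They were read in mouse liver RNA on 11 2-colour arrays. All 7 were on the array, with 11 probes, and all 7 were among the 16704 genes tested, out of 27962 gene names. The array design lists Pf4 under its older name Cxcl4 and Ppbp as Cxcl7. Liver RNA labelled with Cy5 came from embryonic day 14 (E14, 3 arrays), embryonic day 18 (E18, 3 arrays), postnatal day 5 (P5, 2 arrays, numbered 2 and 3) and postnatal day 56 (P56, 3 arrays). The labels give no treatment or genetic change for any group, and no strain is stated for the arrayed livers (the methods name C57BL/6 for the fetal livers put into culture). Every array also carried Cy3-labelled commercial RNA of normal adult mouse liver, so each level below is a log2 ratio of the stage's liver to that adult reference: 0 is equal to it, and a step of 1 doubles the ratio. Replicates were labelled biological, and no array had the dyes swapped.

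The labels name the cells as hepatoblasts at E14, immature hepatocytes at E18 and hepatocytes at P5 and P56, whereas the protocol speaks of whole livers as well as isolated cells. Markers of other cells were present. All 9 erythroid, all 8 neutrophil, all 10 macrophage and all 12 endothelial markers gave Cy5 signal well above background on every array of E14, E18 and P5, and so did all 9 hepatocyte markers at all 4 stages. The samples are read here as mixtures, in which fewer cells of a type and less RNA per cell cannot be told apart. Replicates correlated at r = 0.987 to 0.99 at E14, 0.968 to 0.985 at E18, 0.9 at P5 and 0.826 to 0.937 at P56. Arrays had between 16790 and 25718 Cy5 spots well above background, with the lowest number on P56 replicate 2. Stages were compared with limma over all genes, and a gene was called where its Benjamini-Hochberg adjusted p was under 0.05.

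The promoters of the 5 genes whose products are found in or on platelets are shown because these genes fell together at P56. Each is the 250 bases before a transcript start of the gene in RefSeq (GRCm38.p6), read 5′ to 3′ along the gene. Capitals mark words known to be preferred by GATA factors (AGATAA or AGATAG or TGATAA or TGATAG) or by ETS factors (AGGAAG or CGGAAG), searched on both strands. Both families hold regulators of megakaryocyte genes, and no marked words overlap.
Pf4, chr5:90772185-90772434, plus strand: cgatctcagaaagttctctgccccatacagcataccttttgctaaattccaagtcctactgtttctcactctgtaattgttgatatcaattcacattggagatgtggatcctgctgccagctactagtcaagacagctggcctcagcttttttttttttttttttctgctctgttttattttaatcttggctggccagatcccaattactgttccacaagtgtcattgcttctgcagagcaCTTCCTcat
Ppbp, chr5:90768268-90768517, plus strand: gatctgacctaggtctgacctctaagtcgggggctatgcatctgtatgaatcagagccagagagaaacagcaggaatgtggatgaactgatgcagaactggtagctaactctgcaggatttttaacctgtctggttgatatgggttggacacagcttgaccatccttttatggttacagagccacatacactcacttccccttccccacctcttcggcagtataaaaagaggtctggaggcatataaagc
Itga2b, chr11:102469884-102470133, minus strand: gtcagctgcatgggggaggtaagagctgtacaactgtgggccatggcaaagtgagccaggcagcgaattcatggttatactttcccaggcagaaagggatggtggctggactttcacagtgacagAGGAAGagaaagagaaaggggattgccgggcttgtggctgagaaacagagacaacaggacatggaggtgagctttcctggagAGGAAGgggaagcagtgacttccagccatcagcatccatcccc
Gp9, chr6:87777820-87778069, plus strand: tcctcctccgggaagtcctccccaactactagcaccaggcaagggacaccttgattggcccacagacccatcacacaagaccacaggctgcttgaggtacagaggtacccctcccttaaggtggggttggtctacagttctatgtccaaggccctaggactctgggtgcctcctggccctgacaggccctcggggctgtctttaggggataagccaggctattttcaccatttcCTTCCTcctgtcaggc
Gp1ba, chr11:70638872-70639121, plus strand: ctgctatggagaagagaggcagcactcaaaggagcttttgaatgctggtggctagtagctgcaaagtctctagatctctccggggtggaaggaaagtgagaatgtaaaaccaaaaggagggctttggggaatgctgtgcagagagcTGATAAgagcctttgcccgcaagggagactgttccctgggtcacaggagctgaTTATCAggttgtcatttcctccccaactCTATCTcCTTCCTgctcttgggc
An ETS word was in 4 of these 5 promoters, and in 39.2% of the 32851 RefSeq promoters searched over the same length. A GATA word was in the Gp1ba promoter, with 3 matches, in none of the other 4, and in 26.5% of all promoters. The Itga2b promoter held AGGAAG at 2 positions, and the Ppbp window held neither set of words. Pf4 and Ppbp are neighbours on chromosome 5, with 2371 bases between the end of Ppbp and the start of Pf4. A match shows only that the letters are there.

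Pf4, Ppbp, Itga2b, Gp9 and Gp1ba were highest before birth, were still above the adult reference on both P5 arrays, and were below it on every P56 array. From E14 to P56 the fall was 2.61-fold for Itga2b and 20.8-fold for Pf4. For Gp1ba, whose signal was lost in background at P56, the mean Cy5 signal fell at least 4.85-fold, and its fall cannot be ranked. That bound leaves out the spread between arrays. In the authors' table, where Itga2b changed by -2.59, the change of Gp1ba over these stages was -5.61 and that of Pf4 -4.38 on the log2 scale. Vwf followed another course, with its highest levels at E18 and P5. Thpo ran the opposite way and was lowest at E14. By its brightest probe each of the 7 genes lay below the reference on all 3 P56 arrays, although the reference is itself adult liver; the second Thpo probe was above it on 1.

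**Figure D1:**
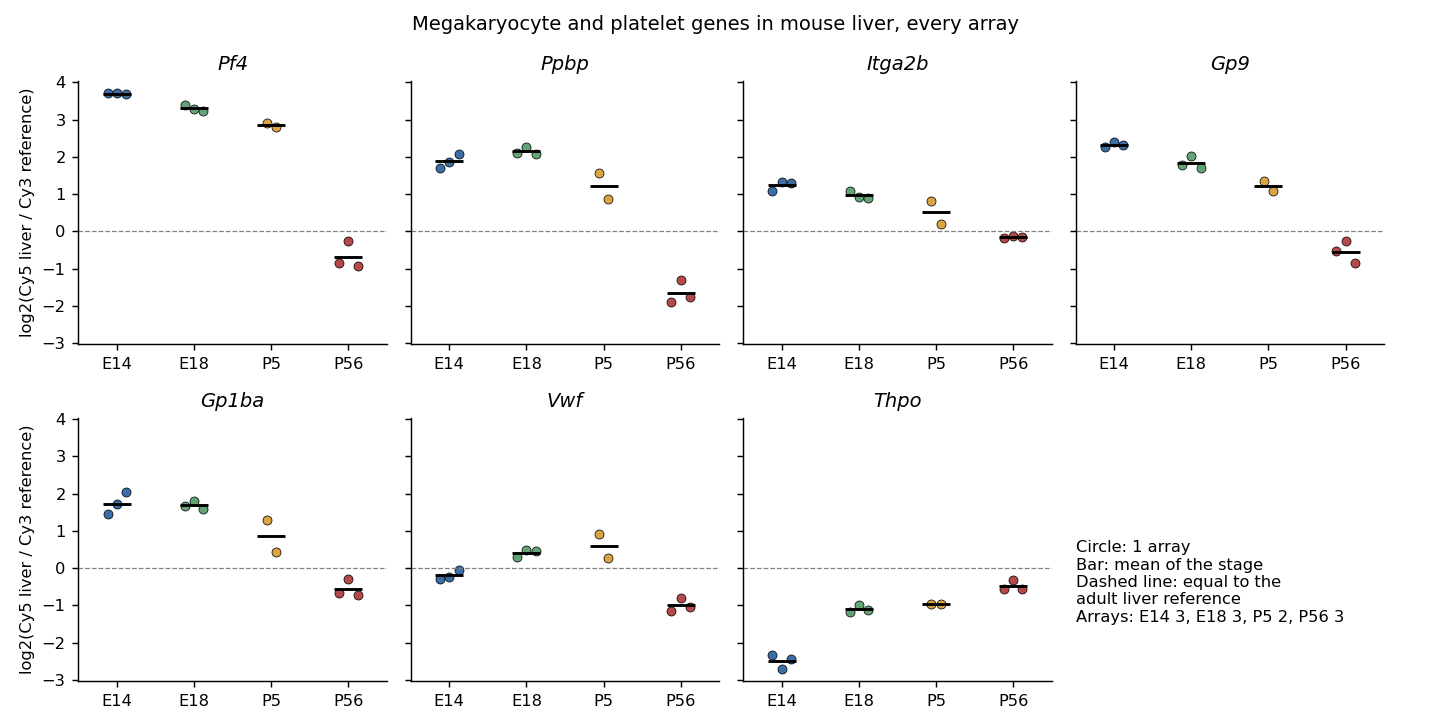
Level of each gene on every array, as the log2 ratio of liver (Cy5) to the adult liver reference (Cy3), against stage. Circles are arrays, bars are stage means and the dashed line is the reference. The 5 platelet genes lie above 0 through P5 and below it at P56, whereas Thpo climbs from a mean of -2.49 at E14 to -0.48 at P56.

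Of the 7 genes, 2 were called higher and 2 lower at E18 than at E14, in a comparison where 24.6% of all genes were called higher and 22.8% lower (47.3% in either direction). Between E18 and P5 none was called higher and 3 were called lower, where 7.32% of all genes were called higher and 6.4% lower (13.7% in either direction). At an unadjusted limma p under 0.05 that step had 0 members higher and 5 lower. From P5 to P56, 1 gene was called higher and 6 lower, where 20.9% of all genes were called higher and 24.7% lower (45.6% in either direction). With each array centred on its median instead, which moved the median change of all genes from -0.02 to -0.47, all 7 were called lower from P5 to P56. P5 against E14 had 2 genes called higher and 5 lower, where 24.9% of all genes were called higher and 24.1% lower (49% in either direction). Against E14, P56 had 1 gene called higher and 6 lower, where 36.1% of all genes were called higher and 34.8% lower (70.9% in either direction), and against E18 it again had 1 higher and 6 lower, where 31.2% of all genes were called higher and 33.6% lower (64.8% in either direction). So many genes changed between the fetal and the adult liver that a call by itself set these genes apart little, and the sizes of their changes are given below. Itga2b, Gp9 and Gp1ba entered the test through their signal at earlier stages only, so their lower calls at P56 were partly fixed by that. The 3 calls between E18 and P5 rest on P5 replicate 3: without it no member was called, and with the scan of the arrays as a random block 1 was called.

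**Figure D2:**
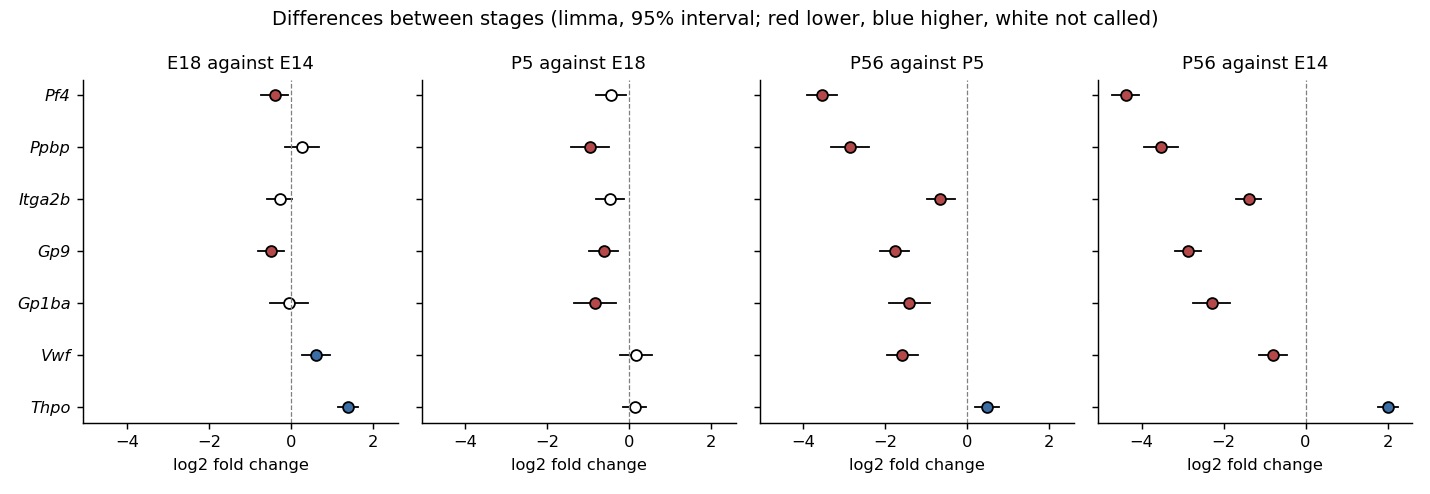
Log2 fold change of each gene in 4 comparisons of stages, with 95% intervals from limma. Red points were called lower, blue points higher and white points were not called. Pf4 and Ppbp lie at -3.53 and -2.85 from P5 to P56, and the point of Gp1ba, at -1.41, rests on P56 signal that was not above background, so its fall cannot be ranked against theirs.

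Pf4, or platelet factor 4, is a chemokine whose transcript is a classical marker of megakaryocytes. Its log2 ratios were 3.71, 3.72 and 3.68 at E14, 3.39, 3.28 and 3.25 at E18, 2.92 and 2.79 at P5, then -0.85, -0.25 and -0.93 at P56. The 4 stages did not overlap and the order was E14, E18, P5, P56, with the 3 earlier stages close together and P56 far below. From P5 to P56 the level fell 11.6-fold (log2 fold change -3.53, SE 0.168, limma adjusted p = 3.2e-08), and within the 1 scan that held both stages the difference was -3.47. The step from E14 to E18 was -0.40 (SE 0.15, limma adjusted p = 0.048), a call lost without any 1 of the 6 arrays of these stages (adjusted p 0.063 to 0.13) and in the authors' table (adjusted p = 0.4). The step from E18 to P5 was -0.45 (SE 0.168, limma adjusted p = 0.099), so these neighbours in the order were not separated by the test.

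Ppbp, or pro-platelet basic protein, is the precursor of several chemokines released from platelets, and lies next to Pf4 in the genome. Its log2 ratios were 1.71, 1.86 and 2.08 at E14, 2.10, 2.28 and 2.08 at E18, 1.56 and 0.86 at P5, then -1.89, -1.29 and -1.75 at P56. The 2 fetal stages lay side by side with E18 just above E14, P5 was spread out between them and the adult, and P56 was the lowest. The change from E14 to E18 was 0.27 (95% interval -0.14 to 0.69, limma adjusted p = 0.27). Ppbp then fell by 0.95 to P5 (SE 0.213, limma adjusted p = 0.013), although this call was lost without P5 replicate 3 (-0.60, adjusted p = 0.15) and without E18 replicate 2 (-0.89, adjusted p = 0.05). The fall from P5 to P56 was 7.22-fold (log2 fold change -2.85, SE 0.213, limma adjusted p = 1.1e-06). Pf4 and Ppbp thus differed in one respect at the fetal step, where Pf4 was lower and Ppbp slightly higher at E18, but the difference between the genes was not tested.

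Itga2b is measured by 1 probe of 60 bases, A_52_P459564, which the array design places at chr11:102567178-102567386 on the minus strand of mm7, a span longer than the probe. No annotation of that build was used here. The sequence is shown because the fitted fall of this gene was the smallest of the 5.
Itga2b probe: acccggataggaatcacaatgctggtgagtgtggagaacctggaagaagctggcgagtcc
Its log2 ratios were 1.08, 1.33 and 1.31 at E14, 1.09, 0.91 and 0.91 at E18, 0.81 and 0.21 at P5, then -0.18, -0.12 and -0.14 at P56. E14 and E18 overlapped by a little, the 2 P5 arrays were far apart, and the 3 P56 arrays lay close to one another just under the reference. The steps from E14 to E18 (-0.27, SE 0.14, limma adjusted p = 0.14) and from E18 to P5 (-0.46, SE 0.156, limma adjusted p = 0.072) were not called. From P5 to P56 the level fell 1.57-fold (log2 fold change -0.65, SE 0.156, limma adjusted p = 0.005), but without P5 replicate 2 the difference was -0.35 (adjusted p = 0.078), which is also its value within the shared scan. From E14 to P56 it fell 2.61-fold (-1.38, SE 0.14, limma adjusted p = 2.8e-06), and this call held without any 1 array. Cy5 signal was well above background on 2 of the 3 P56 arrays.

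Gp9 encodes glycoprotein IX, the small subunit that the von Willebrand factor receptor needs to reach the surface. Its log2 ratios were 2.26, 2.41 and 2.33 at E14, 1.78, 2.03 and 1.71 at E18, 1.35 and 1.09 at P5, then -0.51, -0.27 and -0.85 at P56. Like Pf4 it stepped down at every stage without overlap. Each of the 3 steps was called: E18 was lower than E14 by 0.49 (SE 0.146, limma adjusted p = 0.016), P5 lower than E18 by 0.62 (SE 0.163, limma adjusted p = 0.028), and P56 lower than P5 by 1.76 (SE 0.163, limma adjusted p = 6.1e-06). In the authors' table the first 2 steps were not called (limma adjusted p = 0.14 and 0.43). Among the alternative settings that kept all arrays, 2 of 13 did not call the first step and 6 of 12 the second. The first step was lost without E14 replicate 2 (adjusted p = 0.058), E18 replicate 1 (0.05) or E18 replicate 3 (0.068), and the second without E18 replicate 1 (0.053), E18 replicate 2 (0.094) or P5 replicate 3 (0.21). At P56 1 of 3 arrays had Cy5 signal well above background, so the last fall, 3.39-fold, was measured into dim signal.

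Gp1ba encodes the large subunit of the same receptor, the one that holds the binding site for von Willebrand factor. Its log2 ratios were 1.45, 1.72 and 2.04 at E14, 1.66, 1.81 and 1.59 at E18, 1.28 and 0.44 at P5, then -0.65, -0.28 and -0.72 at P56. E14 and E18 overlapped fully (-0.04, 95% interval -0.50 to 0.41, limma adjusted p = 0.88), so that Gp1ba and Gp9, subunits of one receptor, were not both called at this step. P5 was 0.83 lower than E18 (SE 0.234, limma adjusted p = 0.037), a call lost without P5 replicate 3 (-0.41, adjusted p = 0.36), without any 1 E18 array (adjusted p 0.076 to 0.11), without E14 replicate 2 (0.056) and without P56 replicate 3 (0.05). In the authors' table this step was -0.79 and was not called (limma adjusted p = 0.39). At P56 none of the 3 arrays had Cy5 signal well above background, which leaves only bounds on stage means. The mean level was at least 2.69-fold higher at P5 (limma adjusted p = 0.00046), at least 4.52-fold higher at E18 (2.4e-06) and at least 4.85-fold higher at E14 (1.2e-06) than at P56. These bounds are folds of the Cy5 signal, not of the ratio to the reference. They set the mean Cy5 level of the brighter stage against, on each dim array, the higher of the lowest detected signal and the probe's own signal. The spread between arrays is left out of them. Without P5 replicate 2 the fitted change of the ratio from P5 to P56 was -0.99.

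The size of the fall depended on the processing. In the authors' table the change from P5 to P56 was -4.66 for Gp1ba, -3.15 for Gp9 and -1.55 for Itga2b, against -1.41, -1.76 and -0.65 here. Of the 2 genes with signal well above background on all arrays, Ppbp had -3.89 there against -2.85, and Pf4 -3.74 against -3.53. In that table, in the Cy5 channel alone (-4.70) and from the scanner software's processed signals (-4.87), Gp1ba had a larger change than Pf4 and Ppbp. Leaving out the background correction alone gave -2.01 for Gp1ba, -2.16 for Gp9 and -0.79 for Itga2b. The authors' table differs in more than 1 step, and which of them moved the values was not tested. All 5 were lower at P56 in each of these settings.

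Vwf is the ligand of that receptor. The brightest of its 3 probes, A_51_P103397, gave log2 ratios of -0.30, -0.24 and -0.04 at E14, 0.31, 0.48 and 0.46 at E18, 0.91 and 0.27 at P5, then -1.15, -0.80 and -1.03 at P56. The order of stages was P56, E14, E18, P5, with P5 and E18 overlapping. Vwf was 1.53-fold higher at E18 than at E14 (log2 fold change 0.61, SE 0.156, limma adjusted p = 0.0067) and 2.99-fold lower at P56 than at P5 (-1.58, SE 0.174, limma adjusted p = 2.3e-05). In the authors' table the rise at E18 was 0.38 and was not called (limma adjusted p = 0.27). The change from E18 to P5 was 0.17 (95% interval -0.21 to 0.55, limma adjusted p = 0.56), and it was -0.15 without P5 replicate 2. P56 was also below E14, by 0.80 (SE 0.156, limma adjusted p = 0.00063).

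The second Vwf probe is printed because it followed the same course from another place in the gene, chr6:125708635-125708694 on the plus strand of mm7, against chr6:125709328-125709387 for the first.
Vwf probe A_51_P103406: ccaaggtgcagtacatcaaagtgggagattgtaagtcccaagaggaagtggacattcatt
Its log2 ratios were 0.19, 0.12 and 0.34 at E14, 0.54, 0.70 and 0.67 at E18, 1.23 and 0.35 at P5, then -0.91, -0.41 and -0.93 at P56. It fell from P5 to P56 by 1.54 (SE 0.222, limma adjusted p = 0.00036), while its rise from E14 to E18 of 0.42 was not called (SE 0.198, adjusted p = 0.17). The third probe, A_51_P206886, was not well above background on any array in either colour, and its ratios stayed between -0.13 and 0.06. It says nothing about the level of Vwf.

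Markers of endothelial cells, the other source of Vwf, had its direction at 2 steps but not from E14 to P56. Of 12 markers, 7 (58.3%) were called higher and none lower at E18 than at E14, against 24.6% and 22.8% of all genes. From P5 to P56 none was called higher and 10 (83.3%) lower, against 20.9% and 24.7% of all genes. From E14 to P56, where Vwf was called lower, 6 (50%) were called higher and 1 (8.33%) lower, against 36.1% and 34.8%. Their mean log2 ratio per array ran from -0.49 to -0.44 at E14, was 0.11 on each E18 array, ran from 0.17 to 0.44 at P5 and from -0.41 to -0.23 at P56. At P56 9 of the 12 were well above background on all arrays, and Pecam1, a defining marker, on none. Markers outside these 9 passed the filter through earlier stages only, so their direction at P56 was partly set by it. Their part in the change of Vwf was not tested.

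Thpo was the only one of the 7 genes lower in the fetal than in the adult liver. Its brightest probe, A_52_P431164, gave log2 ratios of -2.33, -2.71 and -2.44 at E14, -1.18, -0.98 and -1.13 at E18, -0.96 and -0.97 at P5, then -0.57, -0.32 and -0.56 at P56. The stages did not overlap, and most of the climb lay between the 2 fetal stages, with E18 and P5 almost touching. From E14 to E18 Thpo rose 2.62-fold (log2 fold change 1.39, SE 0.116, limma adjusted p = 1.7e-06), and within the shared scan the difference was 1.31. The step from E18 to P5 was 0.14 (95% interval -0.15 to 0.42, limma adjusted p = 0.52). From E14 to P56 it rose 4.03-fold (2.01, SE 0.116, limma adjusted p = 2.1e-08).

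The last step of Thpo, from P5 to P56, depended on the scaling. It was 0.48 (SE 0.129, limma adjusted p = 0.01) after loess, 0.91 in the authors' table and 0.85 from the Cy5 channel alone, but -0.41 (adjusted p = 0.038) when each array was only centred on its median, a setting in which the median of all genes moved to -0.47. With the scan as a fixed block the change was 0.48 (adjusted p = 0.059). The direction of this step is therefore not settled, while the rises from E14 to E18 and from E14 to P56 kept their sign under every scaling tried.

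A second Thpo probe is shown because it repeats the course from another place in the gene, chr16:20277354-20277413 on the minus strand of mm7, against chr16:20275232-20275291 for the first.
Thpo probe A_51_P385086: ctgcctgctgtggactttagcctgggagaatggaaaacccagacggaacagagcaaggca
It gave -2.21, -2.37 and -2.30 at E14, -1.11, -0.82 and -0.74 at E18, -1.10 and -0.77 at P5, then -0.17, -0.27 and 0.11 at P56. Its rise from E14 to E18 was 1.40 (SE 0.127, limma adjusted p = 8.3e-06) and that from P5 to P56 0.82 (SE 0.142, adjusted p = 0.0012). The third probe, A_52_P237232, had Cy5 signal well above background on 2 of 11 arrays, both at E18, and its ratios lay between -0.35 and 0.09.

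**Figure D3:**
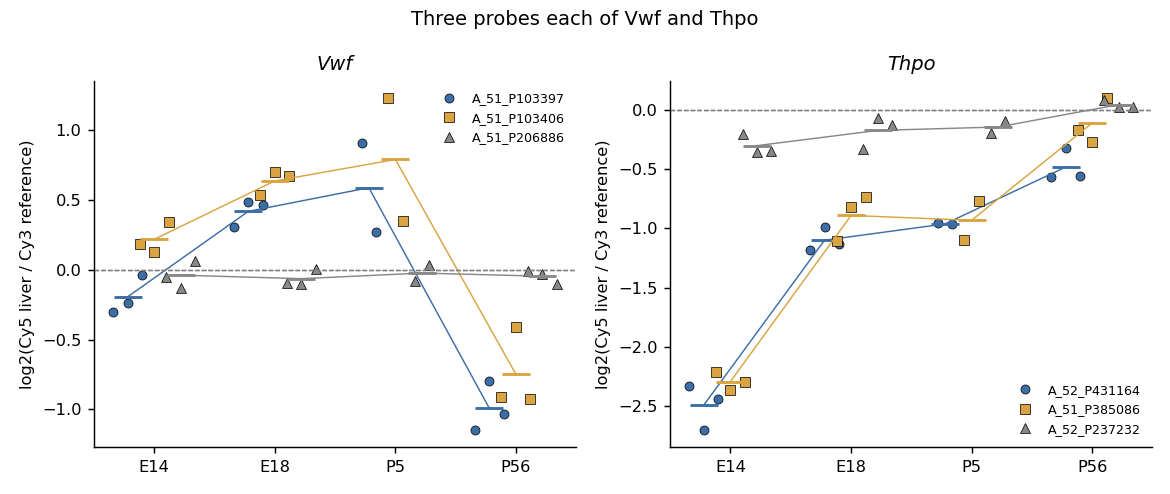
Log2 ratio of liver to adult reference for each of the 3 probes of Vwf (left) and of Thpo (right), by stage. Symbols are arrays, bars and lines join stage means, and each colour is a probe. In both genes the 2 bright probes move together and the third, at or near background, stays close to 0.

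The hepatocyte markers, named for the cells that make most thrombopoietin, also rose at the fetal step. All 9 were called higher at E18 than at E14, where 24.6% of all genes were called higher. Their mean log2 ratio went from between -3.48 and -3.36 at E14 to between -0.68 and -0.57 at E18. From P5 to P56, 3 of the 9 (33.3%) were called higher and 3 (33.3%) lower, against 20.9% and 24.7% of all genes. Asgr1 and Asgr2 encode the hepatocyte receptor that clears platelets and von Willebrand factor whose sugars have been trimmed, and whose uptake of aged platelets is known to raise Thpo. Asgr1 rose by 1.98 (SE 0.105, limma adjusted p = 4.3e-08) and Asgr2 by 2.02 (SE 0.108, limma adjusted p = 4.5e-08) from E14 to E18. From P5 to P56 Asgr1 rose by a further 0.68 (SE 0.117, adjusted p = 0.00062), and Asgr2 changed by -0.05 (SE 0.12, adjusted p = 0.75). With median centring the rise of Asgr1 at this step was 0.21 and was not called (limma adjusted p = 0.38). Adamts13, the protease that trims von Willebrand factor, did not pass the filter on dim probes.

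Other genes of megakaryocytes and platelets were taken from 3 lists, of surface receptors, of granule, secretion and cytoskeleton genes, and of transcription factors. Of 44 genes listed, 41 were tested: Itga2 and F2rl3 did not pass the filter, and Tubb1, the megakaryocyte tubulin, was not analysed here. At E18 7 of the 41 were called higher and 8 lower than at E14 (median change -0.10, against -0.01 for all genes). These are 17.1% and 19.5% of the list, below the 24.6% and 22.8% of all genes given above, and the split moved with the scaling, to 5 higher and 15 lower in the Cy5 channel alone, 6 and 3 in the authors' table and 8 and 6 with median centring. At P5 none was called higher and 11 (26.8%) lower than at E18 (median -0.25, all genes 0.00), where 6.4% of all genes were called lower. The lower calls at this step moved to 0 in the authors' table, 3 in the Cy5 channel alone and 10 with median centring. These settings called 829, 1430 and 1474 of all 16704 genes in either direction. At P56 none was called higher and 23 (56.1%) lower than at P5 (median -0.62, all genes -0.02), where 24.7% of all genes were called lower. In the Cy5 channel alone this step had 3 higher and 26 lower. List genes with no P56 signal above background, such as Tal1 and Gfi1b, passed the filter through earlier stages only. Their direction at P56 was thus partly set by the filter. With signal above background required on all arrays, 0 list genes were called higher and 13 lower from P5 to P56. In that setting 6273 of 11325 genes were called in either direction. The same limit applies to the lists below. Against E14, P56 had 3 (7.32%) higher and 29 (70.7%) lower (median -0.87, all genes 0.04), where 36.1% of all genes were called higher and 34.8% lower. The higher calls from E14 to P56 depended on the setting: median centring gave 0 higher and 34 lower, and the mean over the probes of a gene 2 higher and 31 lower. At an unadjusted limma p under 0.05, 1 list gene was higher and 17 were lower from E18 to P5, and 1 was higher and 27 were lower from P5 to P56. The first was Vamp8, of the granule list, and the second Selp, a surface receptor; Vamp8 was named after its value was seen.

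**Figure D4:**
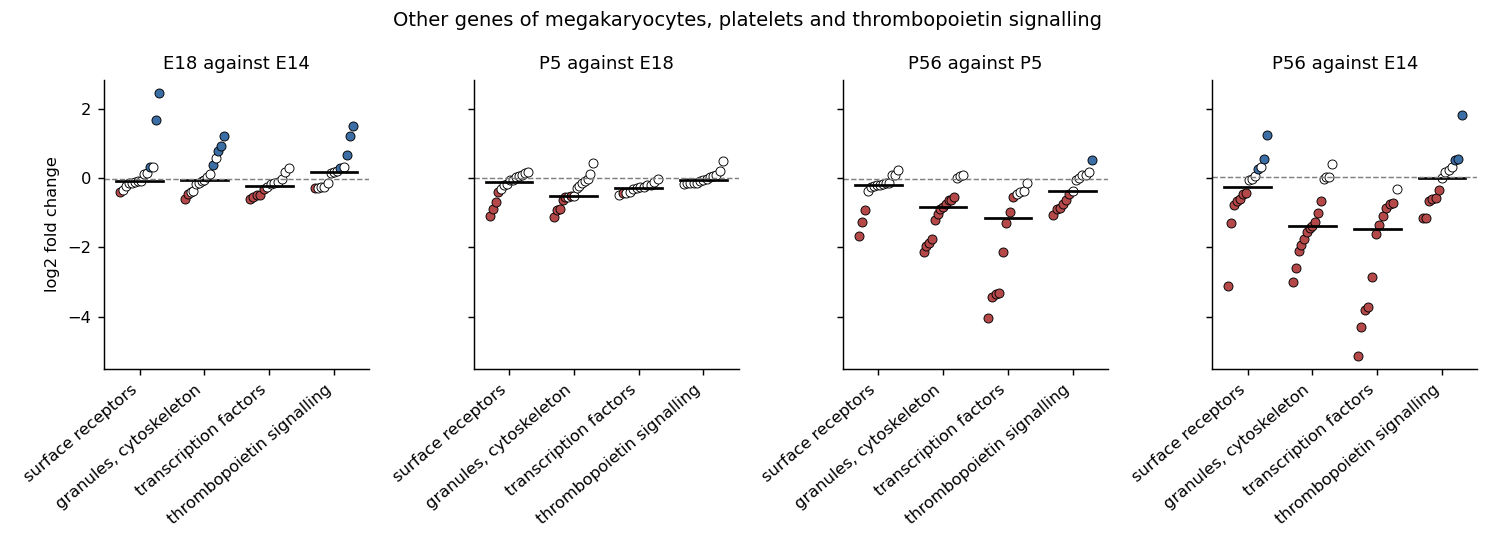
Log2 fold change of every tested gene of 4 lists in 4 comparisons of stages. Circles are genes, red called lower, blue called higher and white not called, black bars are list medians and the dashed line is the median of all genes tested. In the step to P56 from P5, 23 of the 41 genes of the 3 megakaryocyte and platelet lists are red and none is blue, and points of genes with no P56 signal above background, such as Tal1, give a direction and no exact size.

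Of the 14 surface receptors tested, 3 were called higher and 1 lower at E18 than at E14, none higher and 4 lower from E18 to P5, none higher and 3 lower from P5 to P56, and 3 higher and 7 lower from E14 to P56. As shares these were 21.4% higher and 7.14% lower, then 28.6%, 21.4% and 50% lower, with 21.4% higher at the last. Over all genes the same shares were 24.6% and 22.8%, then 6.4%, 24.7% and 34.8% lower, with 36.1% higher at the last, so that from P5 to P56 the receptors were called lower no more often than all genes. The 3 higher calls at E18 and the 3 from E14 to P56 each include Itgb3 by its brighter probe, with which its dimmer probe disagreed (below 0 from E14 to P56, not called at E18). Treml1, a receptor of platelet granule membranes, fell 2.14-fold from E18 to P5 (limma adjusted p = 0.0023) and 3.18-fold from P5 to P56 (adjusted p = 1.8e-05). In the authors' table its change from E18 to P5 was -0.89 and was not called (limma adjusted p = 0.059). Gp1bb and Gp5 complete the receptor that Gp9 and Gp1ba belong to. Gp1bb fell by 0.66 from E14 to P56 (SE 0.0992, limma adjusted p = 7.9e-05), with Cy5 signal above background on 1 of 3 P56 arrays. The mean Cy5 signal of Gp5 was at least 2.6-fold higher at E14 than at P56, where no array was above background (change of the ratio -1.28, adjusted p = 4.9e-06).

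Some receptors of this list are shared with other cells. Cd9, a tetraspanin of many cell types, rose by 2.46 at E18 (SE 0.152, limma adjusted p = 1.4e-07), then fell by 0.88 from E18 to P5 (SE 0.17, adjusted p = 0.0064) and by 1.27 from P5 to P56 (SE 0.17, adjusted p = 1e-04). In the authors' table the rise was called (1.86, limma adjusted p = 0.0074) but the falls were not (-0.85 and -0.53, adjusted p = 0.36 and 0.41). Median centring called both falls (-0.67 and -2.03). A dimmer probe, above background on 4 arrays, gave -0.42 and -0.13 for them, neither called. Selp, the P-selectin of platelets and endothelium, was 0.55 higher at P56 than at E14 (SE 0.09, adjusted p = 0.00016), but 0.064 with median centring (adjusted p = 0.6). Itgb3, the partner chain of Itga2b, has 2 probes with signal on all 11 arrays, and they disagreed. The brighter was 1.25 higher at P56 than at E14 (SE 0.157, limma adjusted p = 4e-05) and the dimmer 2.43 lower (SE 0.221, adjusted p = 2.7e-06), so no direction is given for this gene.

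Of the 15 granule, secretion and cytoskeleton genes, 4 were called higher and 2 lower at E18, none higher and 6 lower from E18 to P5, and none higher and 12 lower from P5 to P56. The lower calls were 13.3%, 40% and 80% of the list, against 22.8%, 6.4% and 24.7% of all genes. Myl9, a myosin light chain, fell by 2.13 (SE 0.228, limma adjusted p = 1.8e-05) and Plek, the protein kinase C substrate pleckstrin, by 1.97 (SE 0.18, adjusted p = 5.4e-06) from P5 to P56. F13a1, the A chain of factor XIII that platelets and macrophages hold, rose by 1.21 at E18 (SE 0.165, limma adjusted p = 9.2e-05). Its mean Cy5 signal was at least 3.88-fold higher at P5 than at P56, where no array was above background (change of the ratio -1.88, adjusted p = 9.2e-06). Ptgs1, the cyclooxygenase of platelets, rose by 0.93 at E18 (SE 0.193, adjusted p = 0.0019). Rab27b, which serves granule release, fell by 1.12 from E18 to P5 (SE 0.224, adjusted p = 0.0075), and Thbs1, the granule protein thrombospondin, by 0.91 (SE 0.272, adjusted p = 0.046). Their dimmer probes were not called at this step, with -0.17 for Rab27b and -0.25 and -0.19 for Thbs1. Neither gene was called in the authors' table (-1.06 and -0.45, limma adjusted p = 0.41 and 0.48), and both were with median centring. The P5 arrays of Thbs1 lay apart, at 0.22 and 1.45.

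None of the 12 transcription factors was called higher in any of these 4 comparisons, and 5 were called lower at E18, 1 from E18 to P5, 8 from P5 to P56 and 11 from E14 to P56. These were 41.7%, 8.33%, 66.7% and 91.7% of the list, against 22.8%, 6.4%, 24.7% and 34.8% of all genes. Tal1 and Gfi1b were above background on no P56 array and were called lower there than at P5, with fitted changes of the ratio of -4.04 (limma adjusted p = 5.2e-08) and -3.43 (adjusted p = 2.3e-07). The sizes of these falls are not settled, since they were -5.45 and -4.76 in the authors' table. Nfe2, which drives the last steps of platelet formation, fell by 3.34 from P5 to P56 (SE 0.177, limma adjusted p = 1.6e-07), with all 3 P56 arrays above background. Lyl1 was 4.30 lower at P56 than at E14 (SE 0.171, adjusted p = 1.2e-09), and Gata1 1.62 lower (SE 0.172, adjusted p = 4.4e-06). Gata1 had Cy5 signal above background on 1 of 3 P56 arrays, so its fall was measured into dim signal. The E18 to P5 call was Ldb1, at -0.44 (SE 0.0991, adjusted p = 0.014). In the authors' table Ldb1 was at -0.45 and was not called (limma adjusted p = 0.11). Tal1, Gata1, Nfe2, Gfi1b and Lyl1 also work in red cell precursors or blood progenitors.

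Thrombopoietin acts through kinases, adaptors and STAT factors that many cell types share. Of 13 such signalling genes tested, 4 were called higher and 1 lower at E18 than at E14, 1 higher and 6 lower from P5 to P56, and 3 higher and 6 lower from E14 to P56. As shares these were 30.8% higher and 7.69% lower, 7.69% and 46.2%, and 23.1% and 46.2%, against 24.6% and 22.8%, 20.9% and 24.7%, and 36.1% and 34.8% of all genes. From E18 to P5 limma called 0 of the 13, and 1 was higher and 0 lower at an unadjusted p under 0.05. Stat3 rose 2.83-fold at E18 (limma adjusted p = 1.3e-06) and fell 2.07-fold from P5 to P56 (adjusted p = 8e-05). Cish, a feedback inhibitor of cytokine signalling, rose by 1.21 at E18 (SE 0.119, adjusted p = 6.6e-06) and was 1.81 higher at P56 than at E14 (SE 0.119, adjusted p = 6.5e-08). Jak2, a kinase that carries the thrombopoietin signal, fell by 0.89 from P5 to P56 (SE 0.115, adjusted p = 7.9e-05), and the phosphatase gene Ptpn11 was 1.15 lower at P56 than at E14 (SE 0.122, limma adjusted p = 4.2e-06).

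Erythroid and neutrophil markers moved with the platelet genes at the last step. All 9 erythroid markers and all 8 neutrophil markers were called lower at P56 than at P5, where 24.7% of all genes were called lower. Of 6 stem and progenitor markers, 3 were called lower and none higher. The fall was not confined to blood lineages. All 6 hepatoblast, 10 of 12 endothelial and 4 of 6 stellate and fibroblast markers were also called lower, and 1 of the last list was called higher. The mean log2 ratio of the erythroid list lay between 3.27 and 3.40 on E14 arrays, 3.28 and 3.49 on E18 arrays, and was 2.69 and 3.12 on the P5 arrays, against -0.20 to 0.04 in the adult, with the red cell membrane gene Epb4.2 above background on no P56 array. At the fetal step the lineages went different ways. All 8 neutrophil markers were called higher at E18, where 24.6% of all genes were called higher. Their mean log2 ratio went from between -0.10 and 0.18 to between 2.97 and 3.01. The mean of Pf4, Ppbp, Itga2b, Gp9 and Gp1ba lay between 2.04 and 2.29 on E14 arrays and between 1.91 and 2.06 on E18 arrays, was 1.58 and 1.08 on the P5 arrays, and lay between -0.88 and -0.44 in the adult. All 10 macrophage markers were called higher at E18 as well, and 5 of them (50%) lower at P56 than at P5, against 24.7% of all genes. What part these other cells had in the changes of single genes was not tested.

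**Figure D5:**
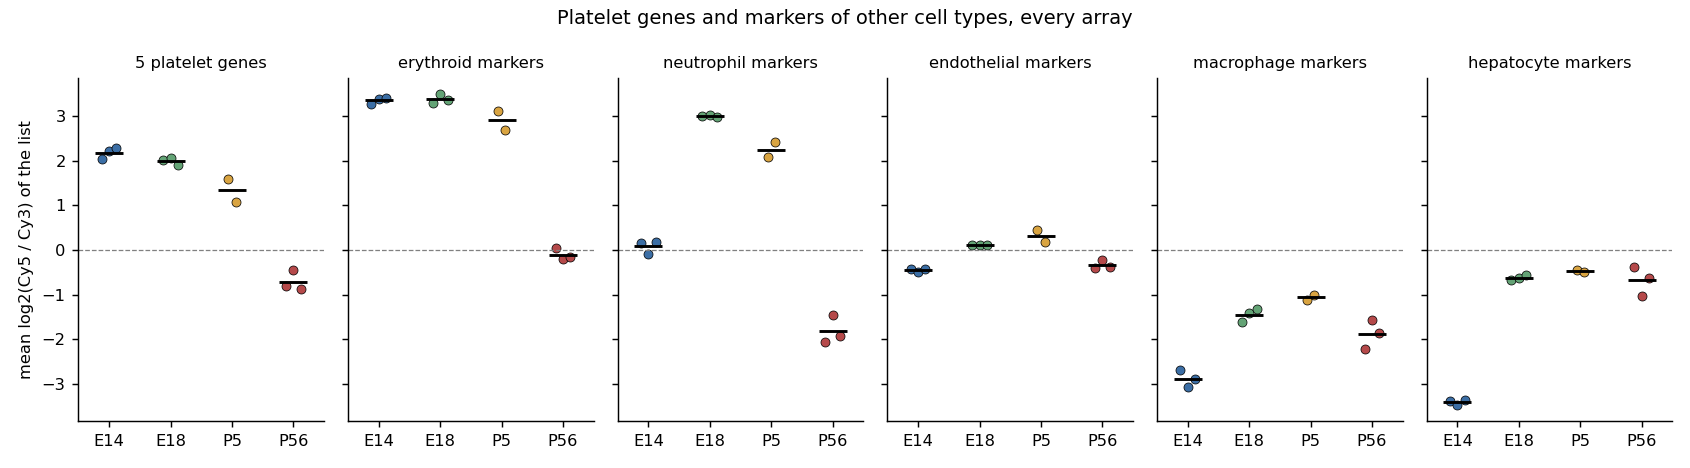
Mean log2 ratio of liver to adult reference on every array for Pf4, Ppbp, Itga2b, Gp9 and Gp1ba as 1 group and for markers of 5 other cell types, by stage. Circles are arrays, bars are stage means and the dashed line is the reference. The platelet genes, the erythroid markers and the neutrophil markers all drop at P56, but the neutrophil markers alone of these 3 start near 0 at E14.

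The genes most like each member were sought by Pearson's r over the 11 arrays, among 11889 genes. The points share the adult reference and only 4 stages, so that any gene with the same order of stages scores high, and the values are a description. Closest to Pf4 were the transcription factor Lyl1, the mitotic gene Cdc20 and the replication gene Mcm4, each at r = 0.997. Closest to Itga2b were the replication genes Cdc45 (0.997, listed on the array as Cdc45l) and Cdc7 (0.994) and the zinc finger gene Hic2 (0.994). Vwf was matched less closely, by Akap13 (0.98), Mmp14 (0.977) and Tspan7 (0.977). The genes nearest to Thpo were Cmtm8 (0.991), Mal2 (0.99) and Fabp1 (0.99), the last being the fatty acid binding protein of hepatocytes.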

How the data were processed

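RNA of mouse livers was measured on 4x44k Agilent arrays. Per the labels and file headers, the authors labelled liver RNA with Cy5 and adult reference RNA with Cy3, scanned the arrays and deposited Feature Extraction 9.5.1.1 files, in which each spot has a mean and a background intensity in both colours; the array design's positions are on mm7. The authors also deposited a table of log2 values, said to be normalized with limma; it served as an alternative.

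Here intensities were background corrected with normexp (offset 50, limma 3.58.1, R 4.3.3), which together with dim signal shrinks ratios, and loess-normalized within arrays, with control and outlier spots at weight 0. Spots of a probe were averaged and the brightest probe stood for a gene. Genes entered the test if 1 stage or more had this probe's Cy5 signal well above background in every array, and no stage lacked over 1 value; all 7 members passed. lmFit and eBayes were run over all 11 arrays with stage as the only term, and p-values were adjusted by Benjamini-Hochberg over all genes tested. The fit was tested on simulated data. Pf4 and Ppbp were found through their RefSeq accessions, and promoters came from the RefSeq table of GRCm38.p6; it had an entry for 6 of the 7 genes, and Vwf is named only.

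Scan times in the files gave 4 scans: E14 with E18 replicate 1, E18 replicates 2 and 3, P5 replicate 2, and P5 replicate 3 with P56. The number of arrays limits the precision, and the p-values measure the spread between these arrays. The genes named are the 7 members with every probe, a fixed set of partner genes (Gp1bb, Gp5, Itgb3, Gata1, Nfe2, Tubb1, Selp, Asgr1, Asgr2 and Adamts13), the 2 largest called changes per list and comparison, and the 3 genes most like Pf4, Itga2b, Vwf and Thpo. Ptgs1, Rab27b and Thbs1 fall under that rule. 1 gene of the signalling list is not reported here and was left out of its counts. The members and lists were chosen with earlier results of these data known. Alternatives covered background correction, scaling, filters, the choice of probe, scan and replicate blocks, the methods' t-test and leaving out each array.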

Additional observations from a re-analysis of the deposited data

How the results depend on the processing

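All 7 members were called from E14 to P56, in the same direction, in each setting that fitted all 7 by their usual probes. Requiring Cy5 signal above background on all arrays leaves out Itga2b, Gp9 and Gp1ba, so that 4 were called there and 4 from P5 to P56. That filter also leaves out list genes such as Tal1 and Gfi1b. With it 16 list genes were called from E14 to P56 and 13 from P5 to P56. Of all 11325 genes it kept, 8731 and 6273 were called. Leaving out 1 array gave 7 members from E14 to P56, 6 to 7 from P5 to P56, 2 to 5 from E14 to E18 and 0 to 4 from E18 to P5, and 30 to 33, 19 to 26, 9 to 17 and 3 to 17 list genes; the low of 9 came without E14 replicate 2, and the extremes of 3 and 17 without P5 replicates 3 and 2. From E18 to P5, where 3 members and 11 list genes were called, 1 member and 3 list genes were called in the Cy5 channel alone or with signal above background on all arrays, 1 and 4 from the scanner software's processed signals, 1 and 0 in the authors' table, and 1 member with scan as a random block. From E14 to E18, 4 members and 15 list genes became 1 and 9 in the authors' table, 9 list genes with signal on all arrays, and 2 members with scan as a fixed block. The methods' t-test after Benjamini-Hochberg adjustment called 0 members and 0 list genes from E18 to P5, and 0 members and 1 list gene from P5 to P56, where it called 61 and 298 of all 16704 genes (3466 and 5577 at an unadjusted p under 0.05). The scans left no fixed-block fit for E18 against P5 or E14 against P56. Median centring called 35 list genes from P5 to P56 in place of 23.

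Changes of sign were as follows. From P5 to P56, median centring turned Thpo to -0.41 and Selp to -0.33, and Asgr2 became 0.51 in the Cy5 channel alone and 0.0024 with scan as a fixed block, and ran from -0.17 to 0.024 over the fits that left out 1 array. From E14 to E18, Gata1 became 0.19 in the authors' table, 0.014 with median centring, 0.029 with no background correction and 0.054 from processed signals, Gp1ba 0.012 with median centring and -0.19 to 0.11 with 1 array left out, Gp5 0.18 in the authors' table, and Vwf -0.025 on its dimmest probe. From E18 to P5, Gata1 became 0.14 in the authors' table, 0.040 with no background correction, 0.18 from processed signals and -0.75 to 0.16 with 1 array left out, Itgb3 0.52 in the Cy5 channel alone, Nfe2 0.041 and Thpo -0.052 in the authors' table, Thpo -0.041 on its second probe, and Vwf ran from -0.15 without P5 replicate 2 to 0.49 without P5 replicate 3. From E14 to P56, Itgb3 became -0.69 in the authors' table and -0.59 as a mean over its probes. The cause of these changes was not tested. The dimmer probes of Vwf and Thpo were tested after seeing the data, in a limma fit over probes instead of genes, dim ones included. Its p-values were adjusted over all those probes, not over the genes tested. The values of both Itgb3 probes and of the dimmer probes of other genes come from that fit too.

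Replicate numbers gave no sign of pairing the arrays: 1 of 15 same-numbered pairs of different stages correlated above 0.1 in their deviations (r from -0.30 to 0.19), against 9 of 30 pairs with different numbers. Deviations were taken from the stage mean, so these correlations depend on one another and cannot exclude a pairing. With the replicate number as a block, 4, 3, 7 and 7 members were called from E14 to E18, E18 to P5, P5 to P56 and E14 to P56, and 16, 9, 22 and 33 list genes. The size of the fall of Gp1ba, Gp9 and Itga2b, which are dim at P56, was not settled: it ranged over the settings from -0.99 to -4.87, -1.61 to -3.15 and -0.35 to -1.55 from P5 to P56.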
